A study of Mus musculus with 10 samples.

Results

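DNA methylation was examined at 10 genes that mark the cells lining the conducting airways. The secretory (club cell) genes were Scgb1a1, Scgb3a1, Scgb3a2, Cyp2f2 and Bpifa1. The genes of ciliated cells were Foxj1, Rsph1, Dnah5, Mcidas and Ccno. Members were all windows of 1000 bp, placed every 500 bp, that overlapped the RefSeq span of one of these genes on GRCm38 (mm10) extended by 5 kb on each side. This gave 138 of 446336 windows, 30 at secretory and 108 at ciliated genes. No window of Scgb3a2 or Bpifa1 was among them, so these genes were not analysed here, and 8 of the 10 genes had data. Mcidas and Ccno lie side by side on chromosome 13 and share 11 windows, and neighbouring windows share 500 bp, so windows are not independent measurements.

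Lung DNA came from 10 female BALB/c mice, which the study's methods give as 8 weeks old. The 3 saline mice were the unsensitized controls. The 3 OVA mice were sensitized to ovalbumin with alum by intraperitoneal injection, challenged with ovalbumin through the nose and given vehicle by mouth. The 4 DSE mice had the same sensitization and challenge and received by mouth DSE, an ethanol extract of Descurainia sophia seeds. These 4 are named Herb in the labels, and they were taken as DSE-treated because the study describes no other herb. The saline mice differ from the other groups in both sensitization and challenge, and which vehicle they were given is not stated. The labels give separate samples without saying whether each is one animal. Where a test below takes in spread between mice, it is the spread between these samples.

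Club cells secrete secretoglobins into the airway lining and carry cytochrome P450 enzymes that metabolize inhaled compounds. Ciliated cells move mucus with motile cilia, and their formation from secretory and basal precursors runs through the nuclear factor Mcidas, the cyclin-like protein Ccno, which acts in centriole amplification, and the forkhead factor Foxj1, which turns on cilium genes. Methylation of CpG sites is typically low at CpG-dense start sites whether or not a gene is active, whereas CpG-poor regulatory stretches more often differ between cell types. Whole lung holds many cell types, of which airway epithelium is a small share. A change in the share of a cell type and a change of methylation within it cannot be told apart in these samples. The labelled tissue could not be checked by expression, since RNA was not analysed here.

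The methylation level of a window is the percentage of its CpG calls that were methylated. A window of a mouse was used from 20 calls. Libraries held 153328794 to 205414739 calls in windows that do not overlap, and 131 of the 138 windows had at least 20 calls in every mouse. The median SD between mice over the windows was 2.3 points for saline, 2.81 for OVA and 2.38 for DSE. A window was called hypermethylated or hypomethylated at an adjusted p under 0.01 in a likelihood ratio test on the pooled calls together with a difference of at least 10 percentage points. This test holds no term for the spread between mice. In tests that do, limma on M-values and an F test with a scale factor, 0 member windows passed the same thresholds in any comparison. Every called member window below is therefore given with its values in each mouse and its limma p. The OVA mice enter both the comparison with saline and that with DSE, and the saline mice enter both comparisons with saline, so these results are not independent.

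The start sites of the genes differed in sequence. RefSeq promoter sequences were at hand for 6 members: Scgb3a1, Cyp2f2, Bpifa1, Dnah5, Mcidas and Ccno. The 250 bases before the start held 26 CpGs at Ccno and 27 at Mcidas, more than in 90.4% and 91.4% of all 32851 promoters respectively. They held 4 CpGs at Dnah5, 2 at Scgb3a1, 2 at Bpifa1 and 0 at Cyp2f2, where the median of all promoters was 6. The promoters of the neighbouring regulators Ccno and Mcidas and of the secretory genes Scgb3a1 and Cyp2f2 are shown because the windows nearest them were almost unmethylated at the first pair and at 59.2% to 77.0% at the second. They are on the plus strand, at chr13:112987552-112987801, chr13:112993618-112993867, chr11:49663345-49663594 and chr7:27119705-27119954 of GRCm38.p6, and capitals mark CpGs. Of the second pair, the Cyp2f2 window ends before the printed bases and the Scgb3a1 window covers only part of them. The levels of these windows are thus not those of the printed sequences.
Ccno: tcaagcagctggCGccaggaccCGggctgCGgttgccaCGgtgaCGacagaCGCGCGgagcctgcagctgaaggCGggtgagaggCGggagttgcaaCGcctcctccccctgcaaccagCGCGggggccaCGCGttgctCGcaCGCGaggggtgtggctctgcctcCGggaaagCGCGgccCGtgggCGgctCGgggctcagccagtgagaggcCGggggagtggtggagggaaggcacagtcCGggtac
Mcidas: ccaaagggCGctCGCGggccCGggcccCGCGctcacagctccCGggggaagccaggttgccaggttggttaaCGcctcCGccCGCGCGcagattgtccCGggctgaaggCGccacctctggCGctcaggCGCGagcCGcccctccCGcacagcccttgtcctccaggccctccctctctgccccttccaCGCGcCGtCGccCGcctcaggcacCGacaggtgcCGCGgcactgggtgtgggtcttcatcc
Scgb3a1: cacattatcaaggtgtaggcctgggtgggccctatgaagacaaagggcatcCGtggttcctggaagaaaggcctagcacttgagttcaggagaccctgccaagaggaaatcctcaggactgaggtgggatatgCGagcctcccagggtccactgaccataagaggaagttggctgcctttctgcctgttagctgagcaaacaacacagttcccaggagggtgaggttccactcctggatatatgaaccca
Cyp2f2: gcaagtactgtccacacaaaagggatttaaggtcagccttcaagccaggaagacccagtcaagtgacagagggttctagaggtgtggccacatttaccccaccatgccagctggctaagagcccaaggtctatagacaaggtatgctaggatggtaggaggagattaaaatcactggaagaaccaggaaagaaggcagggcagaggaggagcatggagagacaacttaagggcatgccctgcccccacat
The letters GTTGCC, part of the X-box that RFX factors bind, were searched on both strands and occurred once each in the Ccno and Mcidas promoters, 219 and 195 bases before the start, and in 10.4% of all promoters. The forkhead letters GTAAACA, held by 3.17% of all promoters, were in none of these 6.

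Windows centred nearest the start sites of the regulators of ciliated cells were almost free of methylation in every mouse. At Ccno (chr13:112987501-112988500, 91 CpGs) levels were 1.05%, 1.14% and 1.04% in saline, 0.874%, 0.839% and 1.39% in OVA, and 0.749%, 0.757%, 0.864% and 0.968% in DSE mice. Every DSE mouse was below every saline mouse there, with means of 0.835% ± 0.103 (SD, n = 4) and 1.08% ± 0.0497 (SD, n = 3), and the OVA mice overlapped both groups. The exact permutation test gave p = 0.0571, the smallest it can reach with 4 against 3 mice. Mcidas (chr13:112993501-112994500, 94 CpGs) stood at 1.53% to 2.03% in saline, 1.89% to 2.00% in OVA and 1.90% to 2.34% in DSE mice. Foxj1 (chr11:116335001-116336000, 72 CpGs) was between 1.99% and 2.74% in saline, 1.66% and 2.28% in OVA and 2.15% and 3.59% in DSE mice. Groups overlapped at both. Each of these starts also lies in an overlapping window. At Foxj1 that window (chr11:116334501-116335500) was higher, at 5.41% to 10.0% across the 10 mice.

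Of the 4 genes with a window over their start site, Rsph1 was the least strongly depleted in the window centred nearest it. Rsph1 encodes a radial spoke protein of motile cilia. Its window (chr17:31277001-31278000, 44 CpGs) measured 4.16%, 3.89% and 5.40% in saline, 4.46%, 4.52% and 5.43% in OVA, and 5.89%, 5.39%, 5.99% and 5.85% in DSE mice. The DSE mean of 5.78% ± 0.268 (SD, n = 4) lay above the OVA mean of 4.80% ± 0.543 (SD, n = 3), but 1 DSE mouse was below the highest mouse of each other group (exact permutation p = 0.114 against either). For orientation, 15296 of 21000 protein-coding genes had a covered window over their start site. In the saline mice 69.6% of these windows were under 5%, 7.84% were over 50%, and the median was 1.78% with 58 CpGs.

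**Figure D1:**
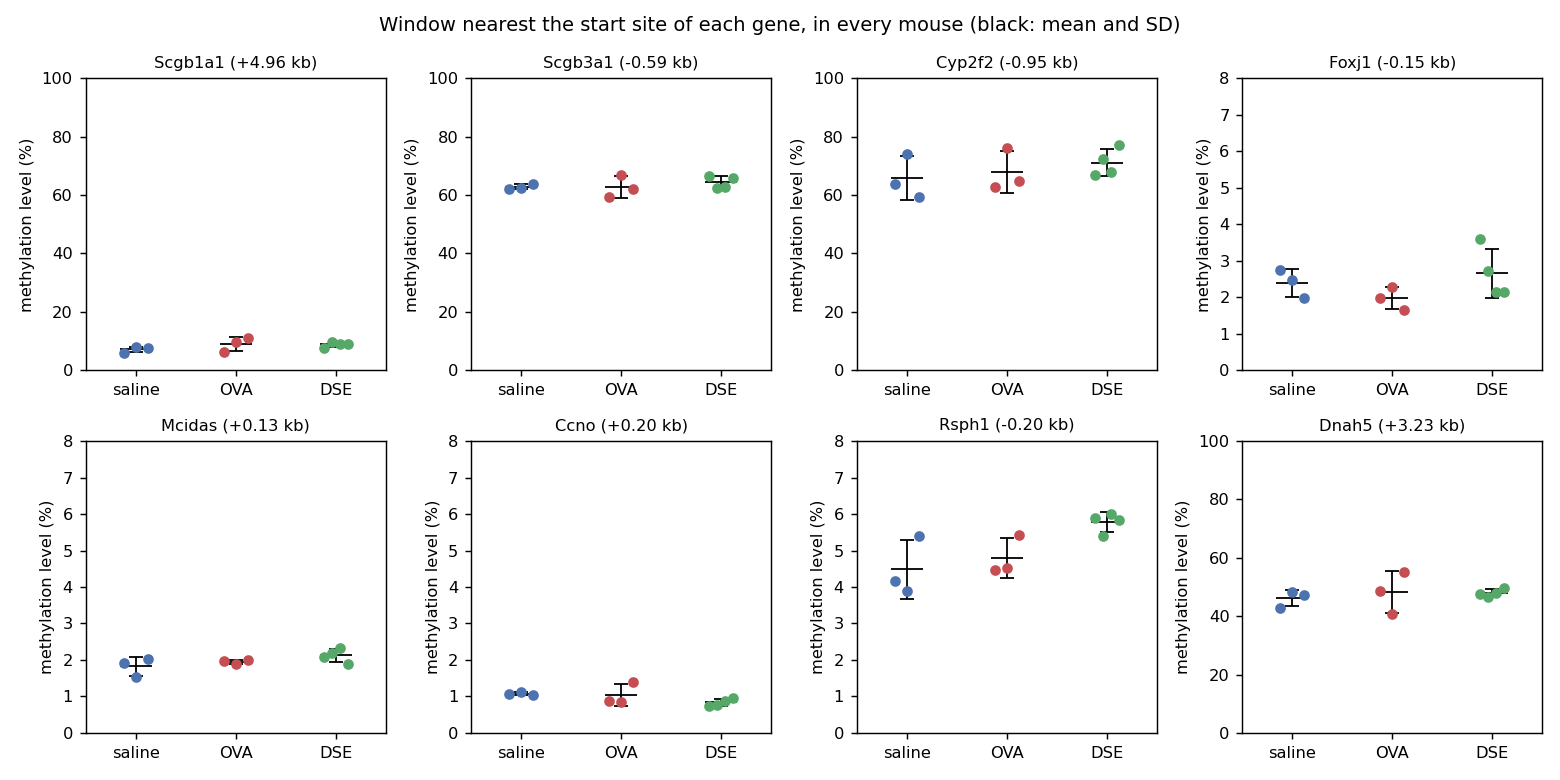
Methylation level (percent) in every mouse for the window nearest the start site of each gene, with the mean and SD over mice in black and the distance of the window centre from the start site in the panel title. The y axis runs to 8% for Foxj1, Mcidas, Ccno and Rsph1, all at 6% or less in every mouse, and to 100% for the other genes, where Scgb3a1 and Cyp2f2 lie between 59.2% and 77.0%.

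Scgb3a1 and Cyp2f2 were more methylated in the windows upstream of their starts. No window lay over the start of Scgb3a1, a secretoglobin of the upper airways. Its nearest window ended 95 bp before it (chr11:49662501-49663500, 23 CpGs) and was at 62.3%, 62.5% and 63.8% in saline, 59.2%, 66.9% and 62.1% in OVA, and 66.5%, 62.4%, 62.9% and 65.8% in DSE mice. For Cyp2f2, the P450 enzyme of club cells, the nearest window ended 455 bp upstream (chr7:27118501-27119500, 11 CpGs). It stood at 63.8%, 74.1% and 59.3% in saline, 63.0%, 76.1% and 64.9% in OVA, and 67.1%, 72.3%, 67.9% and 77.0% in DSE mice. All 3 groups overlapped at both genes. The Cyp2f2 window was shallow, with 47 calls in the least covered mouse, for which the 95% Wilson interval of 63.8% was 49.5% to 76.0%; such intervals cover counting error only. Further along Cyp2f2 the level fell from 81.3% in saline near 5 kb past the start to 40.1% near 8 kb, returned to 85.3% to 88.9% around 12 kb and was at 46.3%, 49.7% and 55.5% in the last 3 windows measured, over the 3' part of the gene. Scgb3a1 climbed in saline mice from 23.6% at 4595 bp before its start to 62.9% in the nearest window, was at 41.9% to 43.2% in the 3 windows centred 1405 to 2405 bp downstream and at 77.6% beyond. In these 3 windows OVA means were 44.5% to 45.4% and DSE means 48.2% or more, and none was called in any comparison.

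Scgb1a1, the main secreted protein of club cells, was covered only downstream. All 5 of its windows lay in the flank past its 3' end, and the window nearest its start ended 4456 bp short of it. Levels there climbed with distance from the gene in every group, with saline means of 7.11%, 12.7%, 42.3%, 50.9% and 90.1%. Dnah5, an outer arm dynein heavy chain, had its nearest window 2735 bp inside the curated transcript (chr15:28206501-28207500), at 40.8% to 55.1% across the 10 mice with the groups overlapping.

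**Figure D2:**
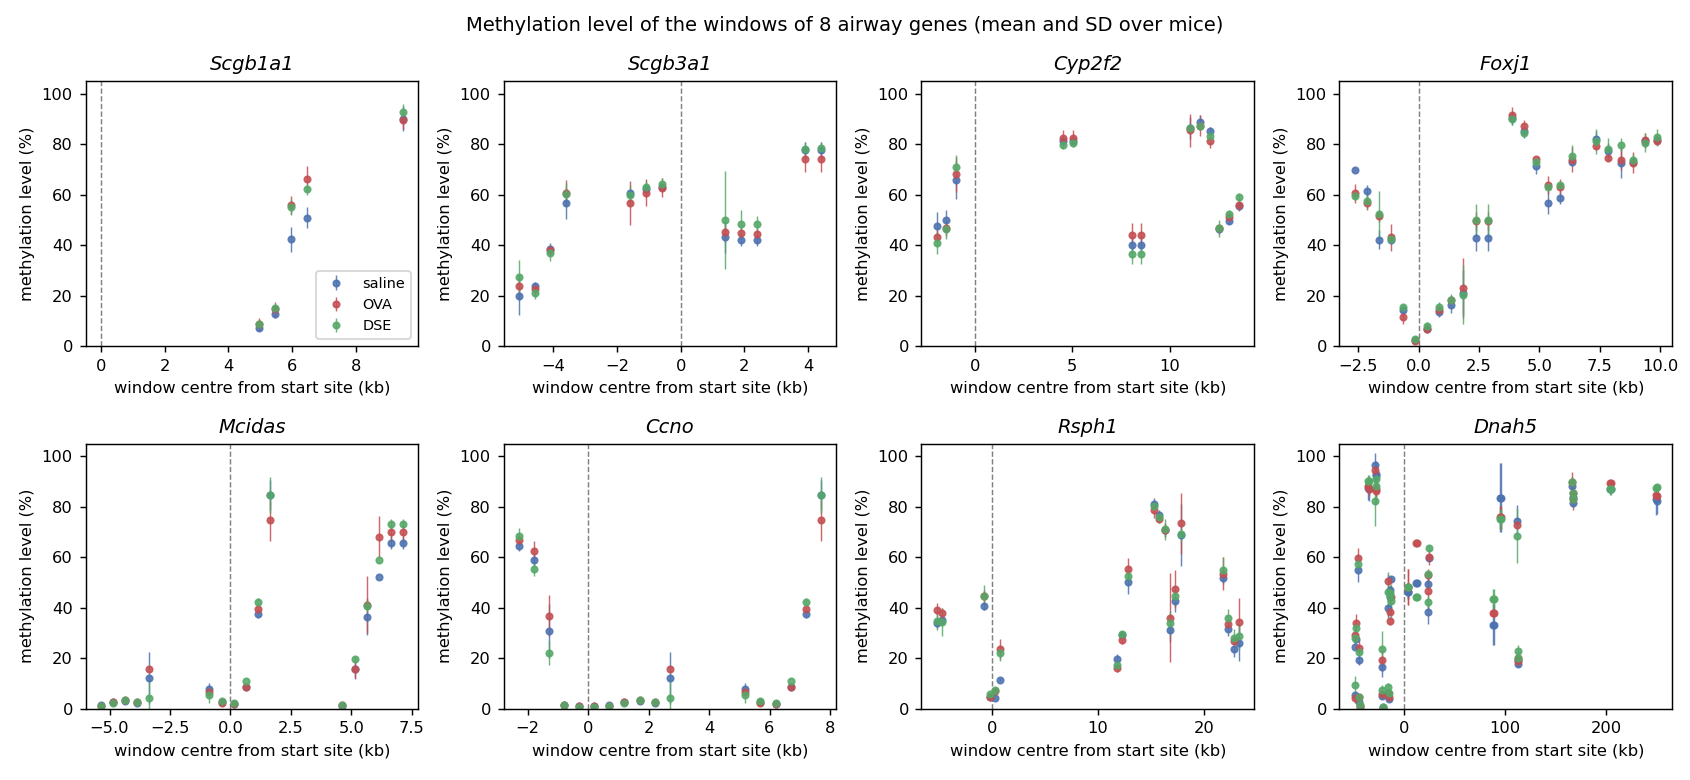
Methylation level (percent, mean with SD over mice) of every member window against the distance of its centre from the start site (kb, dashed line at 0; positive values are downstream). Foxj1, Mcidas, Ccno and Rsph1 dip to 6% or less at the start, while the windows upstream of Scgb3a1 and Cyp2f2 lie between 20% and 71%; the 3 groups run together at most windows.

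Away from the starts, levels spanned the whole scale. In saline mice 26.5% of the member windows with data were under 20%, 53.8% between 20% and 80%, and 19.7% over 80%, against 21.9%, 55.3% and 22.8% of all windows. Windows under 20% made up 6.67% at secretory and 32.4% at ciliated genes. At Ccno and Mcidas the low stretch was long. All 7 windows centred from 802 bp upstream of the Ccno start to 2198 bp past it averaged 0.835% to 3.54% in each group, and the window of a Mcidas exon at chr13:112998001-112999000 was at 0.845% to 2.47% in every mouse. Dnah5 held several short low stretches far upstream of its curated start, inside the span of a predicted longer transcript, such as chr15:28182001-28183000 at 0% to 1.58%.

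Ovalbumin was compared with saline first, the question being which sites the asthma model altered. Few airway windows moved by 10 points. Of 133 tested windows 3 were called hypermethylated (2.26%, where 4.75% of all windows were) and 0 hypomethylated (2.56% of all windows). By the same test 29 windows were higher and 13 lower at an unadjusted p under 0.05 (31.6% in all, against 42.4% of all windows), and by limma 13 windows had an unadjusted p under 0.05 (9.77%, against 19.2%) and 0 an adjusted p under 0.05. Groups did not overlap at 21 windows, 15.8% of those tested against 26.9% of all windows. The called windows lay at Rsph1 and Scgb1a1.

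The Rsph1 window, chr17:31276001-31277000, lies in the first intron and is centred 796 bp past the start. It was at 11.1%, 12.2% and 11.3% in saline, 19.0%, 25.4% and 26.6% in OVA, and 17.7%, 25.3%, 21.7% and 23.8% in DSE mice. Every mouse given ovalbumin, with or without DSE, was above every saline mouse, while OVA and DSE mice overlapped. The mean rose from 11.5% ± 0.597 (SD, n = 3) to 23.7% ± 4.08 (SD, n = 3) with a pooled difference of 12.1 points (adjusted p = 2.85e-35 without the spread between mice; limma adjusted p = 0.103; exact permutation p = 0.1, the smallest for 3 against 3). In DSE mice the mean was 22.1% ± 3.29 (SD, n = 4), 10.7 points above saline in the pooled calls (limma adjusted p = 0.0294; exact permutation p = 0.0571). That call was lost without DSE replicate 2, when the difference was 9.56 points.

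The next window toward the start, chr17:31276501-31277500, shares 500 bp with it and moved the same way at a lower level. Its means were 4.10% ± 0.371 (SD, n = 3) in saline, 6.91% ± 1.5 (SD, n = 3) in OVA and 7.28% ± 1.21 (SD, n = 4) in DSE mice (limma adjusted p = 0.148 for OVA and 0.0433 for DSE against saline). Both this window and the one centred nearest the start lie over the start site. The latter stayed between 3.89% and 5.99% in every mouse. The difference thus sat on the gene side of the low start region. Since the window that moved over the start shares 500 bp with the called one, whether the difference reached the start itself is not known. The stretch of 300 bases with most CpGs in the part of the called window outside its neighbour is chr17:31276153-31276452, shown on the minus strand, which Rsph1 is read from; it holds 5 of the 13 CpGs of the window, in capitals, and was not measured apart from the window.
Rsph1 intron: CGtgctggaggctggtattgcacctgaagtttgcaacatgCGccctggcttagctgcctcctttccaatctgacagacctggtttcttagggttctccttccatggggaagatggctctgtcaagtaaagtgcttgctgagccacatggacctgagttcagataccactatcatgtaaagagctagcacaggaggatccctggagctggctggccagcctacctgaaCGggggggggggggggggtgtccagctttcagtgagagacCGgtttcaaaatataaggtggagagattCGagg

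Downstream of Scgb1a1 both called windows overlap and form chr19:9081001-9082500, which lies wholly past the 3' end of the gene and overlaps no other RefSeq gene. The outer window, chr19:9081001-9082000, was at 48.1%, 48.8% and 55.9% in saline, 64.0%, 62.9% and 72.1% in OVA, and 61.8%, 64.2%, 59.2% and 63.3% in DSE mice. The inner one, chr19:9081501-9082500, was at 38.3%, 40.7% and 48.0% in saline, 52.1%, 56.2% and 59.3% in OVA, and 55.3%, 58.1%, 50.8% and 56.6% in DSE mice. At both, all saline mice were below all others, and OVA and DSE mice overlapped.

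Pooled differences from saline were 14.9 and 13.4 points in OVA (limma adjusted p = 0.127 and 0.140; adjusted p = 1.01e-12 and 2.45e-20 without the spread between mice) and 10.9 and 12.9 points in DSE mice (limma adjusted p = 0.0638 and 0.0626). The outer call in DSE was lost without saline replicate 1 (9.46 points) or 2 (9.82 points). The 2 windows nearer the gene were at 12.7% and 7.11% in saline and 14.6% and 8.88% in OVA mice, and were not called. The 300 bases with most CpGs in the called part, chr19:9081448-9081747, are given on the minus strand of the gene with their 10 CpGs in capitals.
Scgb1a1 downstream: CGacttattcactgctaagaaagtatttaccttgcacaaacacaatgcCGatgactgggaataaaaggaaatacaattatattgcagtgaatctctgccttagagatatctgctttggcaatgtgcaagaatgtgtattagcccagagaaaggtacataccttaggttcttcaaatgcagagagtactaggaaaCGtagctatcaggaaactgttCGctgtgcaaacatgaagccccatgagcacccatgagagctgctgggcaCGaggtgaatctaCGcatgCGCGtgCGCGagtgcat

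**Figure D3:**
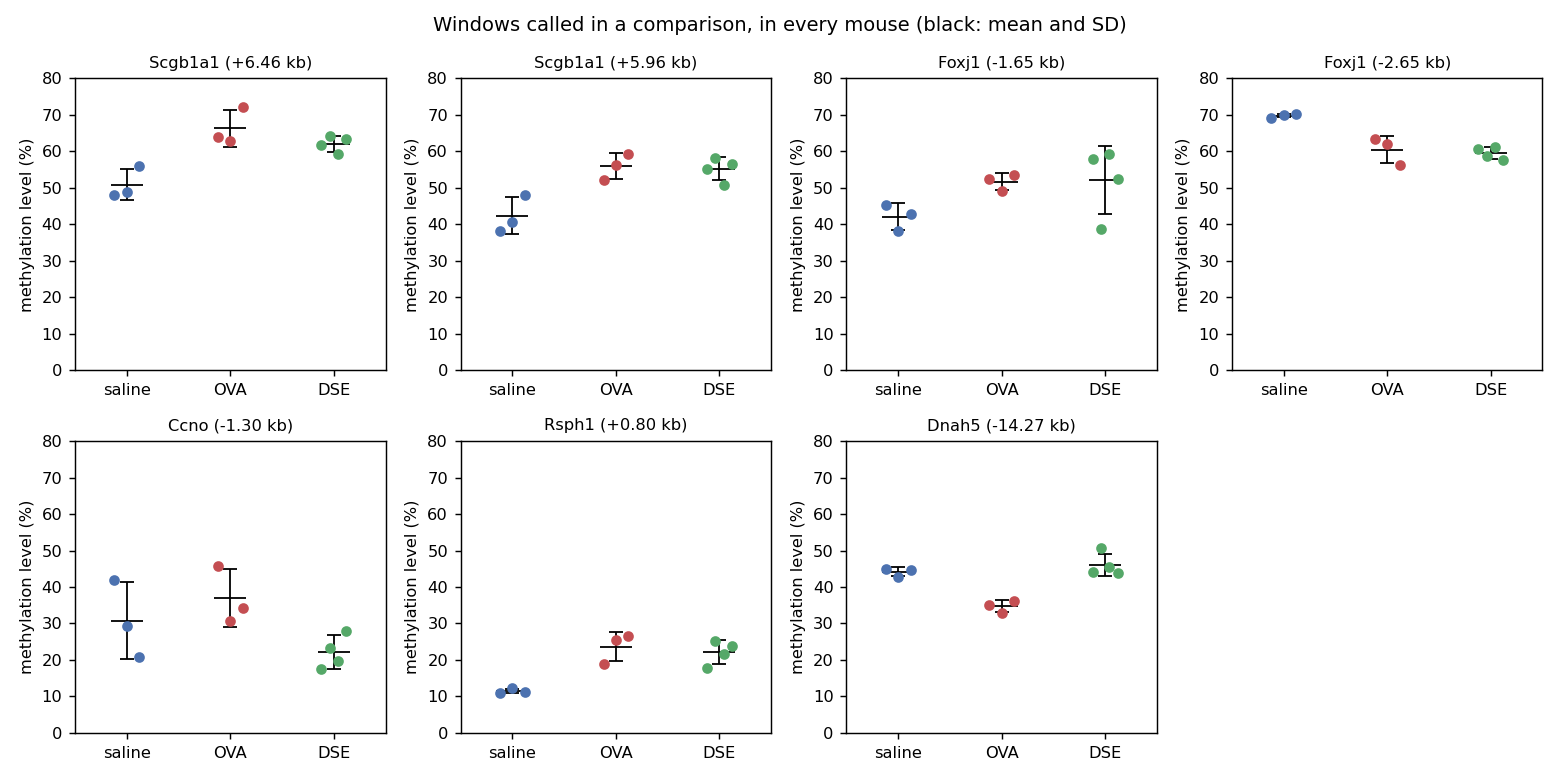
Methylation level (percent, axis from 0 to 80) in every mouse at the 7 windows called in any comparison, with the mean and SD over mice in black and the distance of the window centre from the start site in each title. Saline mice are separate from OVA and DSE mice at Scgb1a1, at Rsph1 and at Foxj1 2.65 kb upstream; OVA mice are the low group at Dnah5.

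The largest OVA differences at the other genes were not called. At Foxj1 2 windows upstream of the start, in the last exon of the neighbour Rnf157, moved in opposite directions without overlap between OVA and saline. The first, chr11:116336501-116337500, was at 45.4%, 38.1% and 42.8% in saline, 52.4%, 49.0% and 53.6% in OVA, and 57.9%, 38.8%, 59.3% and 52.6% in DSE mice. The second, chr11:116337501-116338500, was at 69.3%, 69.9% and 70.2% in saline, 63.3%, 62.0% and 56.2% in OVA, and 60.8%, 58.7%, 61.1% and 57.5% in DSE mice. Pooled OVA differences of 9.88 and -9.19 points fell short of 10 (limma adjusted p = 0.181 and 0.157).

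Against saline, DSE passed it at both Foxj1 windows, with 11.0 and -10.3 points. At the first, 1 DSE mouse was within the saline range (limma adjusted p = 0.274), and the call was lost without DSE replicate 1 (9.70 points), DSE replicate 3 (8.45 points) or saline replicate 2 (8.85 points). At the second, saline was separate from every other mouse, with means of 69.8% ± 0.470 (SD, n = 3) and 59.5% ± 1.71 (SD, n = 4) (limma adjusted p = 0.0394; exact permutation p = 0.0571). Its call was lost without DSE replicate 4, at -9.58 points.

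Dnah5 reached 11.0 points in OVA at chr15:28187001-28188000, from 40.1% ± 4.03 to 50.8% ± 2.58 (SD, n = 3 each), on 62 to 131 calls per mouse (adjusted p = 0.0408 without the spread between mice, limma adjusted p = 0.163). The window shared by Mcidas and Ccno at chr13:112995001-112996000 was 10.5 points lower in the pooled OVA calls, on 44 to 79 calls, with the groups overlapping (limma adjusted p = 0.284). At Scgb3a1 and Cyp2f2 no window differed by more than 4.59 and 4.24 points, and the groups overlapped at all 25 windows of these genes.

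DSE was compared with OVA to ask which of the sites differ with treatment. Of 133 tested member windows 1 was called hypermethylated (0.752%, against 0.898% of all windows) and 1 hypomethylated (0.752%, against 0.725%). Groups did not overlap at 12 windows, 9.02% of those tested against 10.5% of all windows. By limma 0 windows had an adjusted p under 0.05, and 10 an unadjusted p under 0.05 (7.52%, against 9.66% of all windows). Neither called window was one of the 3 called in OVA against saline.

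At Dnah5 the called window, chr15:28189001-28190000, is centred 14266 bp upstream of the curated start, inside the span of the predicted longer transcript. It was at 45.0%, 42.8% and 44.8% in saline, 35.2%, 32.9% and 36.1% in OVA, and 44.2%, 50.6%, 45.6% and 43.7% in DSE mice. OVA mice were below all mice of both other groups, and DSE and saline overlapped. The pooled difference was 11.3 points for DSE against OVA (adjusted p = 1.55e-22 without the spread between mice, limma adjusted p = 0.178, exact permutation p = 0.0571) and -9.63 points for OVA against saline, which was not called (limma adjusted p = 0.136; exact permutation p = 0.1). Without DSE replicate 2 the first was 9.80 points and the call was lost. These 2 differences share the OVA mice, so a low value in that group enters both.

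The overlapping window, chr15:28189501-28190500, was at 47.1% ± 1.09 in saline (SD, n = 3), 38.5% ± 1.27 in OVA (SD, n = 3) and 44.6% ± 4.26 in DSE mice (SD, n = 4), and OVA was again the low group without overlap. In the next, chr15:28190001-28191000, both OVA, 44.1% ± 0.596 (SD, n = 3), and DSE, 42.7% ± 6.55 (SD, n = 4), were below saline, 51.5% ± 1.06 (SD, n = 3). Every DSE mouse was below every saline mouse in this last window (exact permutation p = 0.0571), whereas in the first the DSE mice overlapped saline.

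The called window of Ccno, chr13:112986001-112987000, is centred 1302 bp upstream of the start. It was at 41.9%, 29.3% and 21.0% in saline, 45.9%, 30.6% and 34.3% in OVA, and 17.4%, 23.2%, 19.8% and 28.0% in DSE mice. DSE mice were below every OVA mouse but overlapped the saline mice, which were themselves spread over a wider range than this difference. The pooled difference was -13.4 points (adjusted p = 0.00117 without the spread between mice, limma adjusted p = 0.259). With 58 to 211 calls this window was shallow, the 95% Wilson interval of the least covered mouse, at 29.3%, being 19.2% to 42.0%. The call was lost without OVA replicate 1 (-9.78 points) or DSE replicate 1 (-11.7 points).

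It lies on a steep edge: the window 500 bp further upstream averaged 58.9%, 62.5% and 55.3% in saline, OVA and DSE mice, and the one 500 bp nearer the start 1.35%, 1.47% and 1.31%. At the corresponding edge inside Mcidas, chr13:112994001-112995000, the shift was small but even. Levels were 9.30%, 8.54% and 8.51% in saline, 8.48%, 8.38% and 8.93% in OVA, and 11.0%, 11.1%, 11.0% and 11.1% in DSE mice. All DSE mice were above all others, by 2.45 points over OVA in the pooled calls (limma adjusted p = 0.329; exact permutation p = 0.0571), on 4717 to 7015 calls per mouse. This window was picked out after its values were seen.

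Between DSE and saline, 4 of 135 tested windows were called hypermethylated (2.96%, against 4.95% of all windows) and 1 hypomethylated (0.741%, against 3.07%), all of them described above at Scgb1a1, Rsph1 and Foxj1. Groups did not overlap at 28 windows, 20.7% of those tested against 24% of all windows. By limma 3 windows had an adjusted p under 0.05 and 22 an unadjusted p under 0.05 (16.3%, against 24.2% of all windows). The 3 were the overlapping pair in Rsph1 and the second Foxj1 window. Over all windows limma gave 0 with an adjusted p under 0.05 for OVA against saline, 391 for DSE against OVA and 20202 for DSE against saline.

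**Figure D4:**
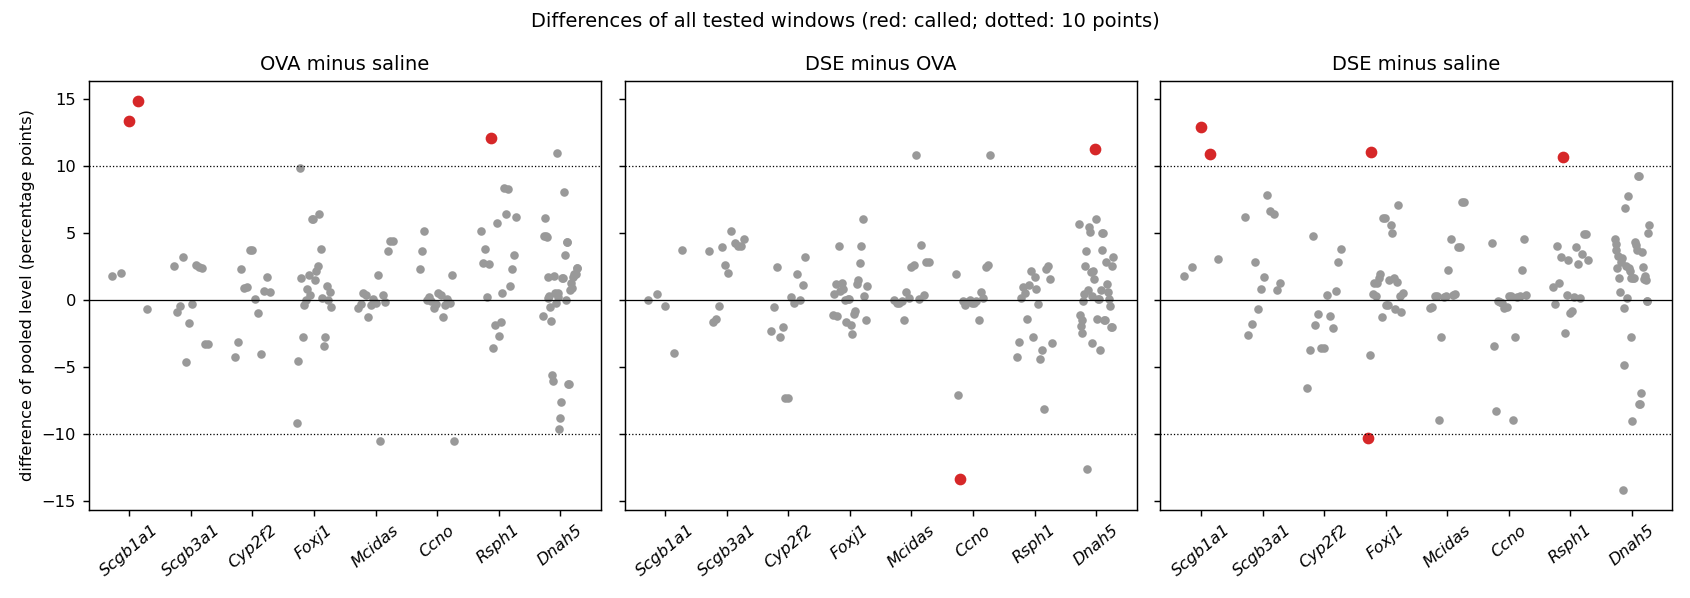
Difference of the pooled methylation level (percentage points) of every tested window, by gene, in the 3 comparisons, with called windows in red and dotted lines at 10 points either way; a window of both Mcidas and Ccno appears under each. Red points are 3 in OVA minus saline, 2 in DSE minus OVA and 5 in DSE minus saline, and most grey points lie within 5 points of 0.

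Loci as a whole were described by pooling the calls of windows that do not overlap. On this scale the DSE mean was above the OVA mean at all 8 genes, by 0.517 points at Cyp2f2 to 3.09 points at Scgb1a1. At Mcidas, for example, DSE mice were at 8.35% to 8.78%, OVA mice at 6.25% to 7.66% and saline mice at 6.61% to 7.42%. The same sum over all windows of the genome was 39.1% in DSE, 36.7% in OVA and 36.4% in saline mice, a shift of 2.44 points between DSE and OVA. With each window that had 20 calls in every mouse weighted equally, the shift over all windows was -0.104 points, and DSE was above OVA at 4 of the 8 genes and below it at 4. The cause of the gap between the scales was not tested.

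The OVA differences also depended on the scale. With pooled calls, OVA minus saline was 2.58 points at Scgb1a1, 1.2 at Cyp2f2, 0.456 at Rsph1 and -0.585 to -0.148 at the other 5 genes. When windows counted equally, Scgb1a1 and Rsph1 had the largest OVA differences. Scgb1a1 was at 47.9% to 53.4% in saline, 55.8% to 58.3% in OVA and 54.5% to 58.3% in DSE mice. Rsph1 was at 35.8% to 39.7% in saline, 38.3% to 42.0% in OVA and 39.0% to 40.9% in DSE mice, where groups overlapped. All windows together rose by 1.22 points from saline to OVA on this scale, against 5.57 points at Scgb1a1 and 3.18 at Rsph1, and the other 6 genes moved by -0.263 to 0.862 points.

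**Figure D5:**
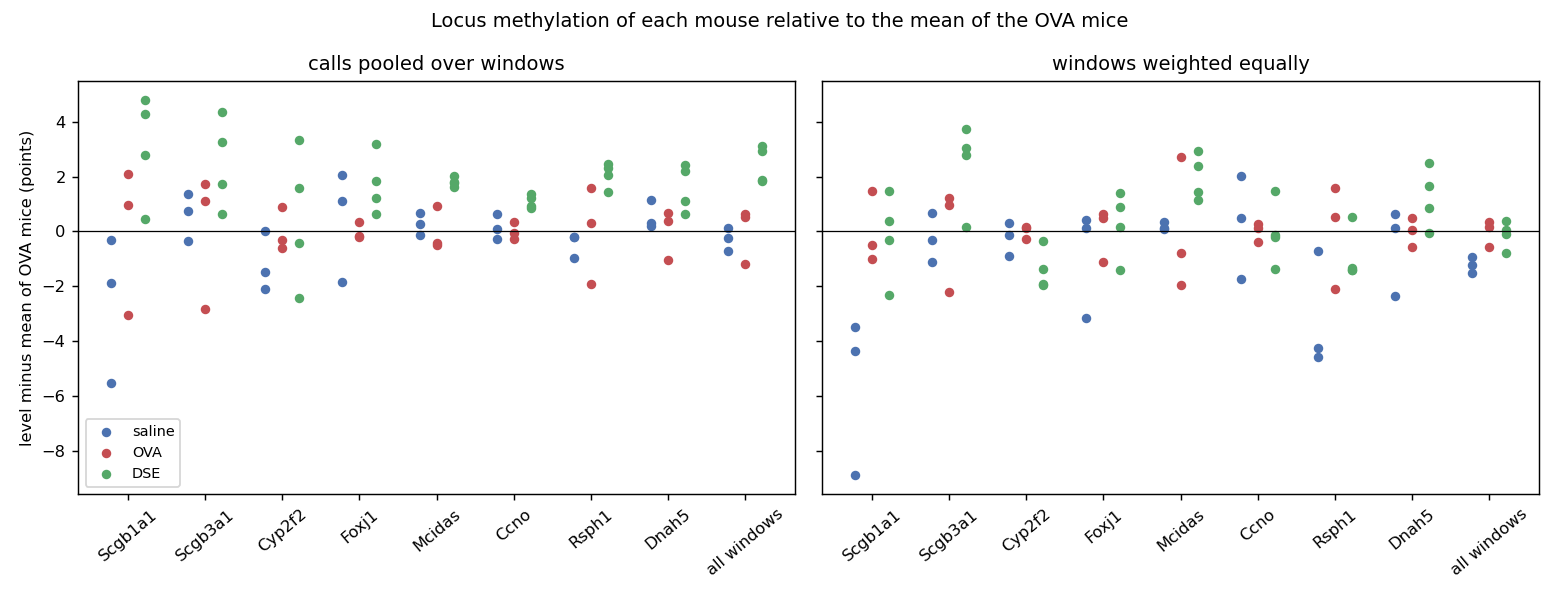
Methylation of each locus in each mouse, as points above or below the mean of the OVA mice, with calls pooled over windows on the left and windows weighted equally on the right. The DSE points lie above 0 on the left for all windows and for every locus except Cyp2f2, whereas on the right they lie above 0 at Scgb3a1 and Mcidas, below 0 at Cyp2f2 and on both sides elsewhere; all saline points are below 0 at Scgb1a1 in both.

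Other airway genes were counted by the same rule. Among 181 tested windows of 13 further secretory genes, 6 were called hypermethylated and 2 hypomethylated in OVA against saline, with a median difference of 1.01 points. For 8 regulators of multiciliated cells the counts were 2 and 9 of 188 windows (median 0.258 points), for 16 structural cilium genes 22 and 5 of 445 (median 1.35 points), and for 4 basal cell genes 0 and 0 of 54 (median 0.813 points). By limma 8 of the 54 basal windows had an unadjusted p under 0.05, against 19.2% of all windows. All windows had 4.75% and 2.56% called and a median of 0.753 points. In DSE against OVA, where all windows had 0.898% and 0.725% called, the secretory list had 2 and 0 calls of 181 windows, the regulators 0 and 5 of 189, the cilium list 2 and 4 of 445 and the basal list 0 and 0 of 54. By limma 4 of the 54 basal windows had an unadjusted p under 0.05 there, against 9.66% of all windows. Of the start windows of these genes, that of Cyp4b1, another P450 of club cells, differed most between OVA and saline and was picked out for this. Its means were 21.1% ± 2.69 in saline (SD, n = 3), 38.2% ± 3.38 in OVA (SD, n = 3) and 35.9% ± 4.94 in DSE mice (SD, n = 4). In OVA against saline 0 of all windows had a limma adjusted p under 0.05.

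Genes of other lung cells were counted in the same libraries. At 8 leukocyte genes 22 of 110 tested windows were called hypomethylated in OVA against saline (20%, against 2.56% of all windows) and 1 hypermethylated, and their level with windows weighted equally was 52.7% to 54.3% in saline, 49.7% to 50.1% in OVA and 48.7% to 51.3% in DSE mice. At 4 endothelial genes 14 of 85 were called hypermethylated (16.5%, against 4.75% of all windows) and 0 hypomethylated, with levels of 40.1% to 40.9%, 43.8% to 46.6% and 42.4% to 45.8%. By limma 33 of these 85 and 41 of the 110 leukocyte windows had an unadjusted p under 0.05, against 19.2% of all windows. In both lists 0 had a limma adjusted p under 0.05. Goblet genes had 3 hypermethylated (9.09%) and 0 hypomethylated calls among 33 windows, and alveolar type 2 genes 3 (4.76%) and 2 (3.17%) among 63. In the leukocyte and endothelial lists saline mice did not overlap OVA or DSE mice. The same held at the called windows of Rsph1 and Scgb1a1 and at the second Foxj1 window. It was not particular to these lists. Saline mice were also separate in the goblet and cilium lists and in the mean of all windows weighted equally. That mean was 50.9% to 51.5% in saline, 51.9% to 52.8% in OVA and 51.7% to 52.8% in DSE mice. The part of any list in the differences at Rsph1, Scgb1a1 and Foxj1 was not tested. In DSE against OVA, the comparison with the Dnah5 and Ccno calls, the leukocyte, endothelial, goblet and alveolar type 2 lists had 0 calls each by the likelihood ratio test. By limma 6 of 109, 9 of 85, 4 of 33 and 3 of 63 windows had an unadjusted p under 0.05, against 9.66% of all windows.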

How the data were processed

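Agilent SureSelect Methyl-seq libraries of whole lung DNA were analysed from 3 saline, 3 OVA and 4 DSE mice, grouped by their labels. The authors trimmed reads, mapped them to mm10 with Bismark and summed CpG calls with methylKit; their processing notes name cutadapt 1.10, Bismark 0.19.0 and methylKit 1.0.0, and the study's methods give other versions. The deposited values are counts without normalization: total, methylated and unmethylated calls of each mouse in 1000 bp windows that start every 500 bp. Every deposited window has at least 10 calls in every mouse.

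Per window, methylated and unmethylated calls of the 2 groups entered a logistic model tested by likelihood ratio (no term for overdispersion), for windows with at least 20 calls in 2 or more mice per group, with Benjamini-Hochberg adjustment over all windows tested. limma 3.58.1 (R 4.3.3) was run on M-values (pseudocount 1). Exact permutation tests over mice were two-sided, listing every split of the mice and doubling the smaller tail. The smallest p is 0.1 for 3 against 3 mice and 0.0571 for 4 against 3. The likelihood ratio test, the F test and the Wilson intervals used scipy 1.17.1. Scripts were tested on simulated data. Alternatives were 50 or no minimum calls, every mouse covered, the F test, limma, 20 points, unweighted means, windows that do not overlap, spans without the flank, a replicate block and each mouse left out.

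Genes, start sites and exons came from RefSeq on GRCm38.p6. Named for each gene are the window whose centre is nearest the curated start, every called window and the window with the largest pooled OVA difference. The genes and the other lists were chosen with earlier results of these data known. Depth was 153328794 to 205414739 calls per mouse in windows that do not overlap. RNA-seq and histology of the study were not analysed here.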

Additional observations from a re-analysis of the deposited data

How the results depend on the processing

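The calls rest on a test without the spread between mice. With the F test, with limma at an adjusted p under 0.01, and with a difference of 20 points, each of the 5 counts above 0 became 0. Over all windows the F test called 0 in any comparison. By the F test 12 member windows in OVA against saline, 7 in DSE against OVA and 17 in DSE against saline had an unadjusted p under 0.05. The share of all windows at this unadjusted threshold was not computed for the F test, so these counts are not read as a result about the members. The count of 0 hypomethylated windows in OVA against saline was 0 under every alternative that kept all mice. Under 20 points and within gene spans alone this was fixed, since these can only drop calls. The F test and limma called 0 of all windows hypomethylated in this comparison. Among windows that do not overlap, the counts for DSE against saline were 2 hypermethylated and 0 hypomethylated. Within gene spans alone, 1 hypermethylated window remained in OVA against saline and 1 in DSE against saline, and 0 hypomethylated windows in DSE against OVA or saline. A minimum of 50 calls, no minimum and full coverage left all 6 counts as they were, and unweighted means gave 6 in place of 4 hypermethylated windows in DSE against saline.

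With each mouse left out, the counts of hypermethylated windows ranged from 3 to 4 in OVA against saline, 0 to 1 in DSE against OVA and 3 to 6 in DSE against saline, and of hypomethylated windows from 0 to 1, 0 to 1 and 1 to 3. Deviations from the group means over all windows correlated at -0.0273 to 0.0785 between mice with the same replicate number. Between mice with other numbers the correlations were -0.0574 to 0.043. All were weak, but this check cannot exclude that the numbers pair the mice. The replicate block gave 3 and 0, 1 and 1, and 4 and 1 calls, but the second Foxj1 window was not among them, at -9.58 points over the 6 mice. Differences at the windows nearest the start sites moved by less than 1 SD between mice in all 208 alternatives. Most of these left out 1 mouse, which cannot move a mean of 3 or 4 mice by 1 SD, so their outcome was fixed. Some differences changed sign. At Cyp2f2, OVA minus saline went from 2.22 points to -1.85 without OVA replicate 2 and to -1 without saline replicate 3. Chosen after the data were seen, equal weighting of windows moved the locus differences by more than 1 SD in 9 of 24 cases and turned DSE minus OVA from positive to negative at Scgb1a1, Cyp2f2, Rsph1 and Ccno (-0.181, -1.4, -0.899 and -0.0618 points). At the shallow windows upstream of Cyp2f2 and Ccno the intervals of the least covered mice are wider than 10 points, so differences of that size between single mice were not detectable there.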
